A study of Homo sapiens with 24 samples.

Results

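The insulin-like growth factor (IGF) axis was followed through 10 genes, chosen by name from the 29639 genes of each table: the ligand gene IGF2 and its imprinted neighbour H19, the receptor genes IGF1R, IGF2R and INSR, the adaptor genes IRS1 and IRS2, and the binding protein genes IGFBP2, IGFBP3 and IGFBP5. All 10 were found, each as 1 row in each of 4 comparison tables. The cells were Rh30 (alveolar) and RD (embryonal), established rhabdomyosarcoma lines, which are tumour cells of the skeletal muscle lineage, and messenger RNA was sequenced. Each line was treated for 5 days with 0.5 µM SGI-110, dasatinib, both drugs (the combination) or the solvent DMSO, in biological triplicate, giving 8 groups and 24 libraries. The labels give no separate dose for dasatinib, and each line is a single established culture. SGI-110 (guadecitabine) is a prodrug of decitabine, an inhibitor of DNA methyltransferases, and dasatinib inhibits tyrosine kinases of the SRC and ABL families among others. The tables compare SGI-110, dasatinib and the combination with DMSO, and the combination with SGI-110. They hold no value per library and name no cell line.

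IGF2 is a fetal growth factor that binds the receptor kinases IGF1R and INSR. These recruit the adaptors IRS1 and IRS2, which pass the signal to the PI3K, AKT and mTOR kinases. IGF2R binds IGF2 without a kinase of its own and carries it to the lysosome, and the secreted IGFBP proteins hold the ligand away from its receptors or deliver it to them. IGF2 and H19 are reciprocally imprinted: on the paternal allele a methylated control region between them leaves IGF2 active, and on the maternal allele the unmethylated region binds the insulator protein CTCF and H19, a long non-coding RNA and host of the microRNA miR-675, is transcribed. A high level of IGF2 and relaxed imprinting of this locus are known features of rhabdomyosarcoma.

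The deposited standard errors have the size of 3 libraries per treatment, so a fold change is taken to describe 1 of the lines, without a statement of which. Changes are given on the log2 scale, ± standard error (SE), and were obtained here as the product of the deposited Wald statistic and its SE. A gene is called higher or lower at an adjusted p under 0.05, and the adjusted p of the 4 deposited comparisons are the authors' own from a Wald test across all genes. The effect of the combination against dasatinib and the interaction were computed here. A treatment is said to hold no measurable level of a gene when the SE of that group was at least 1.17 log2. From counting error alone, 3 libraries reach that SE at a fitted level of 0.5 counts each. No fold is given against such a group. A gene that varies strongly between libraries can also reach this SE at a higher level. The tables do not say which replicates share a direction, and the total count of each library is unknown. Of 12 markers of the muscle lineage, 10 had a measurable level in DMSO, and over all 24 libraries of both lines the mean normalised count was 5182 for MYOD1, 5684 for MYOG and 6849 for DES in the authors' deposited table. Of the haematopoietic markers none exceeded a mean normalised count of 10.9, and of the hepatocyte markers none exceeded 47.2, in the authors' deposited table. Endothelial markers reached 674 and fibroblast markers 29851 on the same scale in the authors' deposited table. With SGI-110, 5 of 6 fibroblast, 5 of 5 endothelial, 4 of 6 haematopoietic, 2 of 4 hepatocyte and 6 of 12 muscle markers were called higher, beside 30.4% of all genes, according to the authors' deposited table. In that comparison 1 fibroblast and 3 muscle markers were called lower, beside 17.1% of all genes, and with dasatinib 7 of 12 muscle markers were, beside 13.2%, according to the authors' deposited table. The part of these markers in the results below was not tested.

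The promoters of the 3 members called higher with SGI-110 at the largest Wald statistics are shown first, beside that of IGF1R, the most CpG-rich one. CpG sites are marked because the drug inhibits the enzymes that methylate them, and methylation itself was not measured. The windows run from 250 bases before to 50 bases after the annotated start (RefSeq, GRCh38.p14), 5′ to 3′ on the strand of the gene, with every CpG in capitals. They lie at chr11:2001217-2001516, chr7:45921223-45921522 and chr2:216695500-216695799 on the minus strand and at chr15:98648289-98648588 on the plus strand.
H19 promoter: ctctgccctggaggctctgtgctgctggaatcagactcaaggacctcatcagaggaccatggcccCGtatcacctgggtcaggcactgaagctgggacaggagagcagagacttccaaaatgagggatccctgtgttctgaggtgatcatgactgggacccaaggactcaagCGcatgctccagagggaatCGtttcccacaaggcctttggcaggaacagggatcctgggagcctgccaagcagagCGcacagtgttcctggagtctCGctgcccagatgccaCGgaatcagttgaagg
IGFBP3 promoter: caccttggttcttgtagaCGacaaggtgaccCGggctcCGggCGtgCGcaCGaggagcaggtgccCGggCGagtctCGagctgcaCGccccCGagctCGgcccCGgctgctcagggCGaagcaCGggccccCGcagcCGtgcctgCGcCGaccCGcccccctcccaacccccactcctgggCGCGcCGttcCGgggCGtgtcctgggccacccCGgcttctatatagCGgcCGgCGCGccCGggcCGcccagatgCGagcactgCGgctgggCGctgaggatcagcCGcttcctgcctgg
IGFBP5 promoter: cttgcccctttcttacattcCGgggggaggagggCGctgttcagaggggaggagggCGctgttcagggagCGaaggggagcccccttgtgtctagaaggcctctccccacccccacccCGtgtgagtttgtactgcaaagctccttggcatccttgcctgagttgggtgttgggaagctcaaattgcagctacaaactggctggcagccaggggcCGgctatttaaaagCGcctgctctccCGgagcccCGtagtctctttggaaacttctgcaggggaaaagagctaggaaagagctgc
IGF1R promoter: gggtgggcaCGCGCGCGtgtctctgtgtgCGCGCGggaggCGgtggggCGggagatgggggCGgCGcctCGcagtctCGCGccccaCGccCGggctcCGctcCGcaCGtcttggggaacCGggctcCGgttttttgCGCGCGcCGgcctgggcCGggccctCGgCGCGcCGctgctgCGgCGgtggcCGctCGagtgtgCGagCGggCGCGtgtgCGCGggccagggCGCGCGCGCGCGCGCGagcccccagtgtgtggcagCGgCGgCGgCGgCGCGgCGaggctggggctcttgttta

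The H19 window held 6 CpG sites and that of IGFBP5 held 9, both under the median of 14 over 35116 promoter windows. The IGFBP3 window held 36, more than 87.3% of all windows, and the IGF1R window held 55, more than 99.6%. INSR (36), IGF2R (41), IRS1 (47) and IRS2 (50) also had more CpG sites than the median window. IGFBP2 has 3 annotated windows with 8, 28 and 6 CpG sites. IGF2 was not matched, so 9 of the 10 genes have a promoter here. The control region between IGF2 and H19 lies outside these windows. The GC box GGGCGG, searched on both strands, occurred in the windows of IGF1R (2 sites), IGF2R (6), INSR (4), IRS1 (4), IRS2 (5) and IGFBP3 (2) and in 2 of the 3 IGFBP2 windows (1 each), against 45% of all windows. The myogenic E-box CAGCTG occurred once, in INSR, and not in its 250 bases before the start, against 17.9% of all windows, and the FOXO motif GTAAACA in none of these windows, against 3.4% of all.

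**Figure D1:**
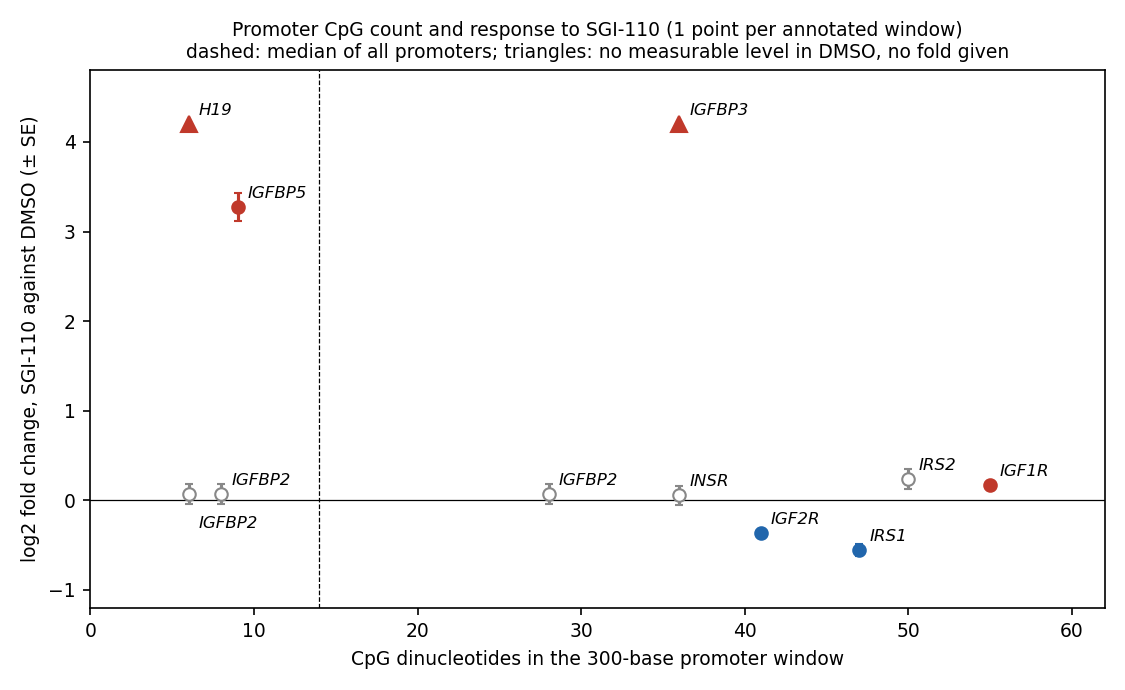
Number of CpG dinucleotides in the 300-base promoter window (x) against the log2 fold change with SGI-110 (y, ± SE) for each annotated window; the dashed line is the median of all windows, and triangles at the top mark genes with no measurable level in DMSO, for which no fold is given. H19 (6 CpG sites), IGFBP5 (9) and IGFBP3 (36) were called higher at the largest Wald statistics, while IGF1R with 55 moved by 0.17.

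Per kilobase of annotated exon (GENCODE v29), the mean normalised count over all 24 libraries of both lines was highest for IGF2, at 2935, in the authors' deposited table. H19 (426), IGF2R (418) and IGFBP2 (318) followed, then IRS1 (187) and IGF1R (161), in the authors' deposited table. IGFBP3 (92.5), IGFBP5 (77.7), INSR (32.6) and IRS2 (24.9) were lowest of the 10 in the authors' deposited table. By the mean normalised count itself, IGF2 (20481) stood above 99.9% of all genes and IRS2 (203) above 65.8% in the authors' deposited table. These averages cover both lines and all treatments, so they say nothing of the level in any 1 group, and the annotation behind the authors' counts may differ from the lengths used here.

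SGI-110 alone switched H19 and IGFBP3 from no measurable level to a well-measured one, raised IGFBP5 by 9.71-fold, and moved the ligand, receptor and adaptor genes by at most 0.55 log2, in the authors' deposited table. In bulk RNA, a change in the number of cells that express a gene and a change in RNA per cell cannot be told apart. In all, 4 members were called higher (H19, IGFBP3, IGFBP5, IGF1R) and 3 lower (IRS1, IGF2R, IGF2), while IGFBP2, INSR and IRS2 did not pass, in the authors' deposited table. Over all genes tested 30.4% were called higher and 17.1% lower in this comparison. Dasatinib alone gave 2 members higher (IGFBP5, IGFBP2) and 2 lower (IGF2R, IRS1) in the authors' deposited table, against 17.8% and 13.2% of all genes. The combination against DMSO gave 4 higher (H19, IGFBP3, IGFBP5, IGF1R) and 4 lower (IRS1, IGF2, IGF2R, IGFBP2) in the authors' deposited table, against 29.8% and 17.6% of all genes. With dasatinib added to SGI-110, no member was called higher and 6 were called lower (H19, IRS1, IGFBP3, IGF2, IRS2, IGFBP2) in the authors' deposited table, against 14.2% and 17% of all genes. At an unadjusted p under 0.05 no member was higher in that comparison either. The comparisons with DMSO share their control libraries. INSR was called in none of the 4 comparisons and IRS1 in all 4 in the authors' deposited table.

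**Figure D2:**
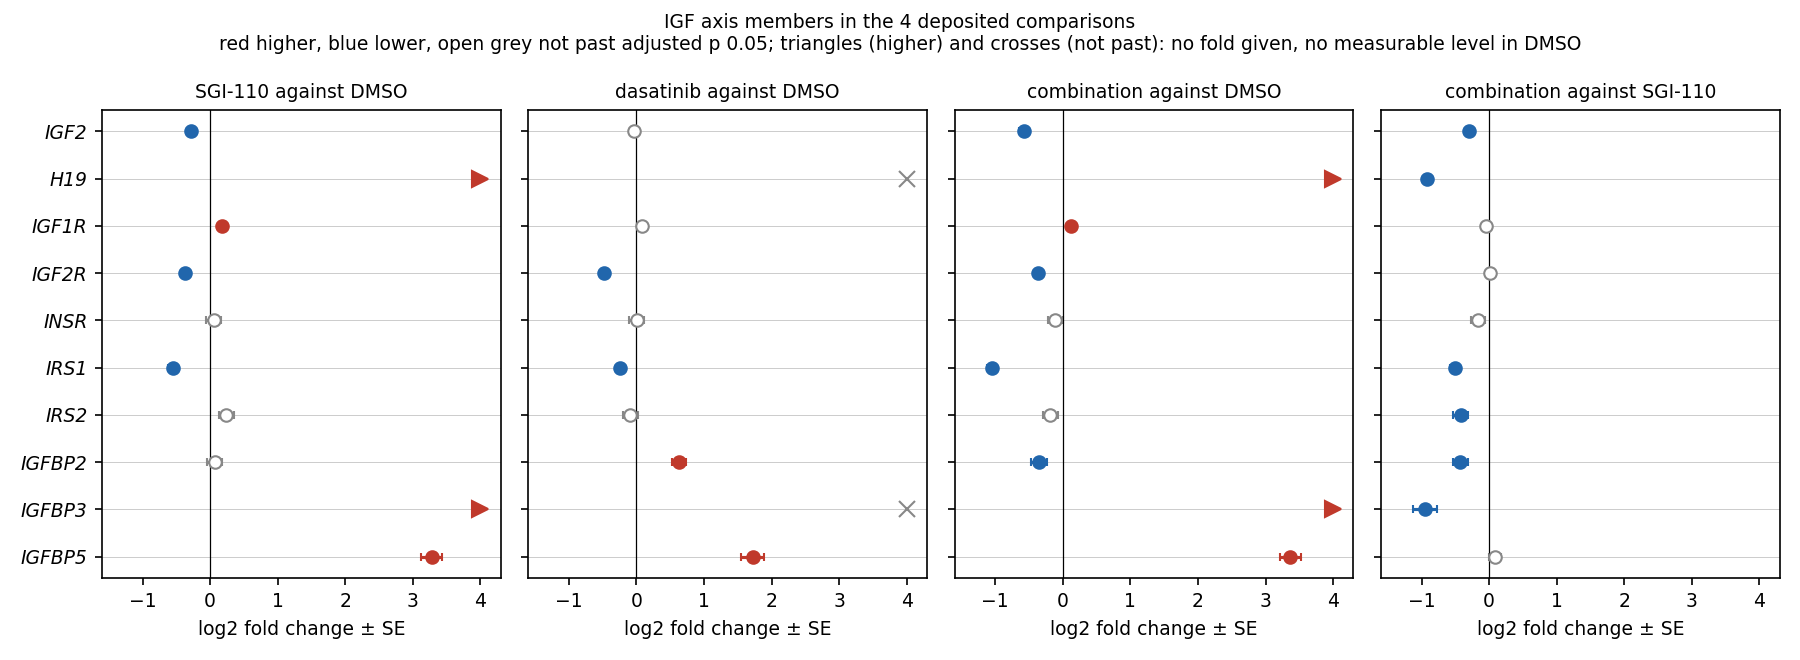
Log2 fold change (x, ± SE of the authors' fit) of each gene (y) in the 4 deposited comparisons; red is higher, blue lower and open grey not past an adjusted p of 0.05, and triangles (higher) and crosses (not past) at the right edge mark genes with no measurable level in DMSO. H19 and IGFBP3 appear as folds only against SGI-110, where they stood at -0.91 and -0.95.

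H19 (GRCh38, chromosome 11, 1995176 to 2001470, minus strand) had no measurable level in DMSO or in dasatinib: the SE of either group was 1.18 log2, against 0.05 with SGI-110 and 0.05 with the combination, computed from the authors' deposited table. H19 therefore lay at the limit of measurement without SGI-110 and was well measured with it, and the groups differed at an adjusted p of 1.63e-27 for SGI-110 and 6.01e-24 for the combination, according to the authors' deposited table. Dasatinib against DMSO compares 2 groups at that limit (adjusted p = 0.945, according to the authors' deposited table). It gives no size or direction for H19, which stayed without a measurable level under dasatinib alone. Among cells that received SGI-110, adding dasatinib lowered H19 to 53.2% of its level (-0.91 ± 0.07, adjusted p = 9.58e-34), according to the authors' deposited table. The combination level still exceeded that with dasatinib alone, with an adjusted p of 1.45e-24 computed here. The order of the groups was thus SGI-110, then the combination, then DMSO and dasatinib, which cannot be placed against each other.

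IGF2 (chromosome 11, 2129112 to 2149603, minus strand) lies 127.6 kb from H19. It was called lower with SGI-110 and with the combination against DMSO, where H19 was called higher, and both genes were called lower when dasatinib was added to SGI-110, according to the authors' deposited table. Taking DMSO as 100%, its level was 82.4% under SGI-110, 98% under dasatinib and 67.3% under both drugs in the authors' deposited table. It fell with SGI-110 (-0.28 ± 0.07, adjusted p = 2.60e-04) and with the combination (-0.57 ± 0.07, adjusted p = 6.62e-15), according to the authors' deposited table. Dasatinib alone left it within the error of DMSO (-0.03 ± 0.07, adjusted p = 0.835), and dasatinib on top of SGI-110 lowered it (-0.29 ± 0.07, adjusted p = 2.48e-04), according to the authors' deposited table. The order of its levels was DMSO and dasatinib, which did not differ beyond their error, then SGI-110, then the combination. The fall of IGF2 and the appearance of H19 were in the same groups, and whether they fell on the same alleles or cells was not measured. The SE of each IGF2 group was 0.05 log2, so falls of this size were resolved although the fold was small.

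IGF2 shares its locus with genes whose reads may be counted together. IGF2-AS, transcribed from the opposite strand within IGF2, fell with SGI-110 (-1.13 ± 0.22, adjusted p = 8.18e-07) and stood at 0.26 ± 0.23 with dasatinib added to SGI-110 in the authors' deposited table. INS-IGF2, a read-through transcript that shares exons with IGF2, fell with SGI-110 (-1.47 ± 0.40, adjusted p = 6.36e-04) and stood at 0.10 ± 0.45 with dasatinib added in the authors' deposited table. The libraries were stranded, but the strand setting of the authors' counting is not given in the sources used here, so reads of IGF2 and IGF2-AS cannot be told apart with certainty. GENCODE v29 holds 2 entries named IGF2 at this locus, and the tables hold 1 row.

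The wider 11p15.5 region was described through 23 genes found in the tables, H19, IGF2 and INS-IGF2 among them. H19 was not alone in appearing: 8 of the 23 had no measurable level in DMSO, and 7 of these were called higher with SGI-110 in the authors' deposited table. The 7 were H19, CDKN1C (a cyclin-dependent kinase inhibitor, adjusted p = 6.98e-12), PHLDA2 (a regulator of placental growth, 1.07e-09), SLC22A18 (a transporter, 1.74e-05), TH (tyrosine hydroxylase, 3.73e-05), MRPL23-AS1 (1.53e-04) and TRPM5 (a cation channel, 1.17e-03) in the authors' deposited table. Of all genes with no measurable level in DMSO and an adjusted p, 39% were called higher with SGI-110, computed from the authors' deposited table. H19, CDKN1C and PHLDA2 have a mean normalised count of at least 50. Of the 353 such genes without a measurable DMSO level, 90.7% were called higher, computed from the authors' deposited table. That mean includes the libraries treated with SGI-110, so it is not independent of the call. CDKN1C and PHLDA2 are, like H19, expressed mainly from the maternal allele, and they too fell with dasatinib added to SGI-110 (-0.59 ± 0.18 and -1.38 ± 0.22) in the authors' deposited table. KCNQ1OT1, the paternally expressed antisense RNA of that second imprinted domain, fell with SGI-110 (-0.96 ± 0.39, adjusted p = 0.0319) and with dasatinib alone (-1.04 ± 0.39) in the authors' deposited table. With SGI-110 the muscle gene TNNT3 rose (1.97 ± 0.17) and the ribosomal protein gene MRPL23 fell (-0.98 ± 0.20), while NAP1L4 stood at -0.02 ± 0.05, in the authors' deposited table. TNNT3 also fell with dasatinib added to SGI-110 (-1.48 ± 0.15), and it fell with dasatinib alone (-1.56 ± 0.27), in the authors' deposited table. H19 has no fold for dasatinib alone, so TNNT3 and H19 cannot be compared in that respect. Of the 20 neighbours other than H19, IGF2 and INS-IGF2, 7 were called lower and 3 higher with dasatinib added to SGI-110, beside 17% and 14.2% of all genes. With SGI-110 against DMSO, 11 of the same 20 neighbours were called higher and 3 lower, beside 30.4% and 17.1% of all genes. Their median was 0.22 over the 13 measured in both groups, against 0.04 over all 21364 genes measured in both groups, computed from the authors' deposited table.

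**Figure D3:**
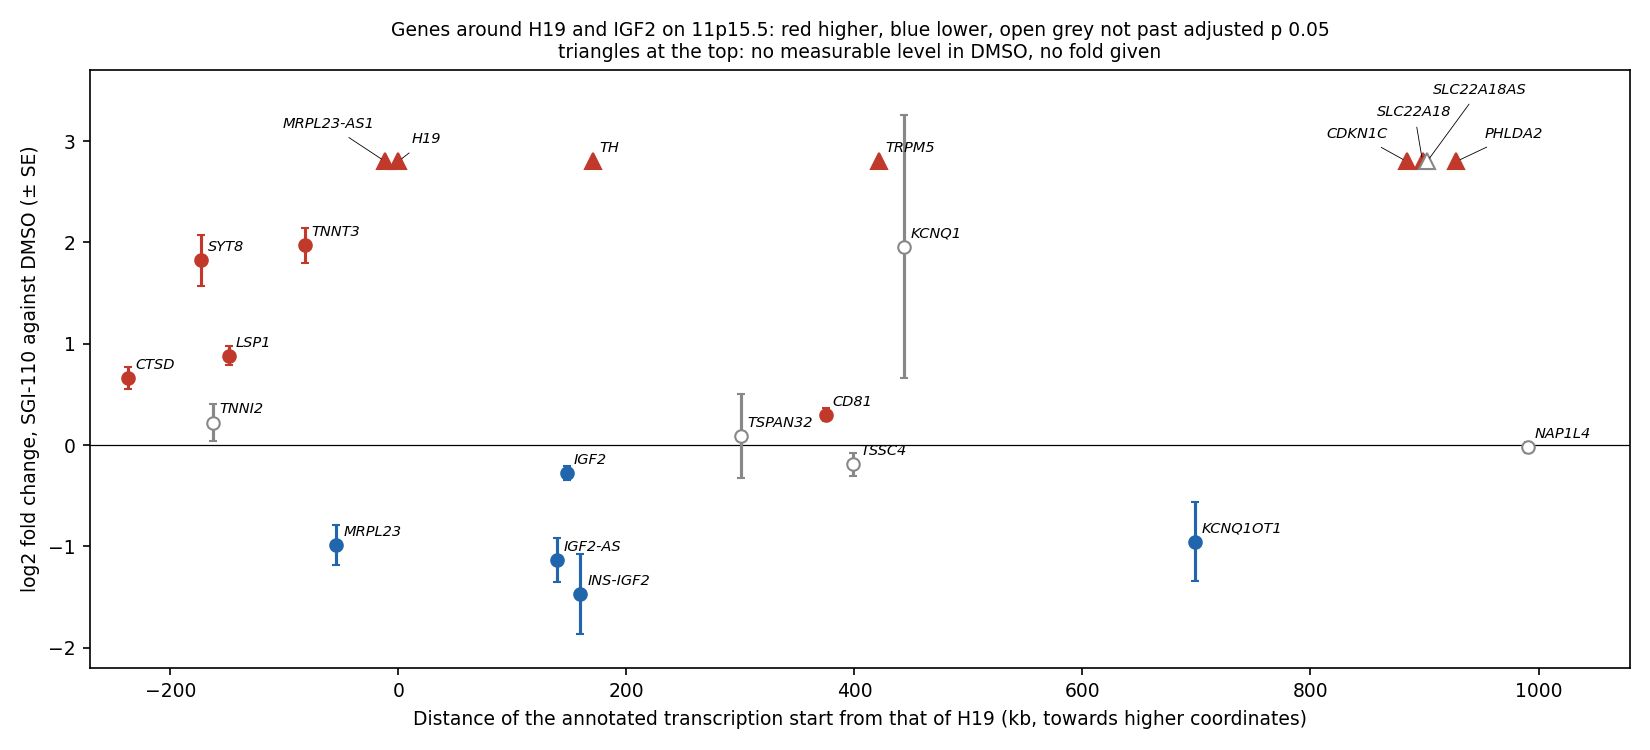
Log2 fold change with SGI-110 (y, ± SE) of genes on 11p15.5 by the distance of their annotated start from that of H19 (x, kb); red is higher, blue lower, open grey not past an adjusted p of 0.05, and triangles at the top mark genes with no measurable level in DMSO. IGF2 (-0.28), IGF2-AS (-1.13) and INS-IGF2 (-1.47) lie together below 0, while H19, CDKN1C and PHLDA2 are among the triangles.

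The receptor genes moved little. IGF1R (chromosome 15, 98648539 to 98964530), the main signalling receptor of the axis, stood at 113% of DMSO under SGI-110, 105% under dasatinib and 109% under both drugs in the authors' deposited table. It rose with SGI-110 (0.17 ± 0.05, adjusted p = 1.27e-03) and with the combination (0.13 ± 0.05, adjusted p = 0.0215), according to the authors' deposited table. The combination and SGI-110 did not differ beyond their error for IGF1R (-0.04 ± 0.05), nor did dasatinib and DMSO (0.08 ± 0.05), in the authors' deposited table. INSR (chromosome 19, 7112255 to 7294034), the insulin receptor, did not pass in any comparison. The 95% interval of its change ran from -0.16 to 0.27 log2 with SGI-110, from -0.21 to 0.22 under dasatinib and from -0.33 to 0.11 under both drugs, computed from the authors' deposited table.

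IGF2R (chromosome 6, 159969099 to 160113507), the clearance receptor for IGF2, fell under every treatment. It stood at 77.4% of DMSO under SGI-110, 71.6% under dasatinib and 77.9% under both drugs in the authors' deposited table. The falls were -0.37 ± 0.04 (adjusted p = 8.40e-16), -0.48 ± 0.04 (1.17e-25) and -0.36 ± 0.04 (3.70e-15), according to the authors' deposited table. Added to SGI-110, dasatinib left IGF2R at 0.01 ± 0.04 (adjusted p = 0.930), according to the authors' deposited table. The combination stood above dasatinib alone by 0.12 ± 0.04 (adjusted p = 0.0168, computed here). That call is lost, at an adjusted p of 0.146, when the sharing of the DMSO group by both contrasts is ignored. Ignoring it counts the error of DMSO although DMSO cancels in this contrast.

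The adaptor IRS1 (chromosome 2, 226731317 to 226799759), which couples both kinase receptors to PI3K, had the largest fall against DMSO of the members with a fold. Its level was 68.2% of DMSO under SGI-110, 84.8% under dasatinib and 48.2% under both drugs in the authors' deposited table. The changes were -0.55 ± 0.07 (adjusted p = 8.90e-15), -0.24 ± 0.07 (2.48e-03) and -1.05 ± 0.07 (8.43e-50), and dasatinib on top of SGI-110 gave -0.50 ± 0.07 (2.25e-11), in the authors' deposited table. The combination therefore lay below either drug alone, against dasatinib by -0.81 ± 0.07 (adjusted p = 5.42e-30, computed here). IRS2 (chromosome 13, 109752698 to 109786568), the related adaptor, was not called against DMSO: it stood at 0.24 ± 0.11 under SGI-110, -0.09 ± 0.11 under dasatinib and -0.18 ± 0.11 under both drugs in the authors' deposited table. Its adjusted p for SGI-110 was 0.0619 in the authors' deposited table and 0.0442 when only genes at or above 50 mean normalised counts are tested. IRS2 fell when dasatinib was added to SGI-110 (-0.42 ± 0.11, adjusted p = 7.84e-04), according to the authors' deposited table.

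The binding protein genes showed 3 different patterns. IGFBP3 (chromosome 7, 45912245 to 45921874), the main carrier of IGFs in serum, followed H19: the group SE was 1.18 log2 in DMSO and in dasatinib, 0.10 with SGI-110 and 0.14 with the combination, computed from the authors' deposited table. It was called higher with SGI-110 (adjusted p = 5.00e-12) and with the combination (1.18e-09), and dasatinib added to SGI-110 lowered it to 51.8% (-0.95 ± 0.18, adjusted p = 8.15e-07), according to the authors' deposited table. IGFBP3 and H19 thus shared the order SGI-110, combination, then the remaining groups at the limit of measurement.

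IGFBP5 (chromosome 2, 216672105 to 216695525), a binding protein induced during the differentiation of muscle cells, was measurable in all treatments and rose with each. SGI-110 raised it by 9.71-fold (3.28 ± 0.16, adjusted p = 2.04e-95), dasatinib by 3.29-fold (1.72 ± 0.17, 3.29e-23) and the combination by 10.3-fold (3.37 ± 0.16, 9.62e-101) in the authors' deposited table. The combination and SGI-110 did not differ beyond their error (0.09 ± 0.09, adjusted p = 0.529), according to the authors' deposited table. The SE of its DMSO group, 0.14 log2, was above those of the treated groups, 0.06 to 0.09, computed from the authors' deposited table.

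IGFBP2 (chromosome 2, 216632828 to 216664436) lies 7.67 kb from IGFBP5. Both were called higher with dasatinib alone, and their calls differed with SGI-110 and with the combination, according to the authors' deposited table. Its level was 105% of DMSO under SGI-110, 155% under dasatinib and 78.2% under both drugs in the authors' deposited table. It rose with dasatinib (0.63 ± 0.11, adjusted p = 4.71e-08), fell with the combination (-0.35 ± 0.11, 5.38e-03) and stood at 0.07 ± 0.11 (0.651) with SGI-110 in the authors' deposited table. Dasatinib on top of SGI-110 lowered IGFBP2 (-0.42 ± 0.11, adjusted p = 9.26e-04), according to the authors' deposited table, so the drug that raised the transcript alone lowered it in cells that also received SGI-110. The combination against dasatinib gave -0.99 ± 0.11 (adjusted p = 1.99e-18, computed here).

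Whether dasatinib acted differently with SGI-110 present was tested as an interaction, the effect of dasatinib on top of SGI-110 minus that of dasatinib alone. It equals the combination minus the sum of the single effects, and it rests on the assumption that all 4 tables come from 1 fit. Of the 8 members measurable in all treatments, 1 was called higher and 3 lower, against 6.09% and 8.49% of all genes in the interaction computed here. Those shares are over all 29639 genes, of which 20386 were measurable in all treatments, so the 2 sets are not alike. IGFBP5 lay 1.63 log2 below the sum: the single effects add to 5.00, the combination reached 3.37, and the interaction was -1.63 ± 0.19 (adjusted p = 1.49e-15). For IGFBP2 the interaction was -1.06 ± 0.15 (adjusted p = 6.21e-10), with a sum of 0.70 and a combination of -0.35. For IGF2R it was 0.49 ± 0.06 (adjusted p = 6.71e-13): the sum was -0.85 and the combination -0.36, about the effect of SGI-110 alone. IRS1 gave -0.26 ± 0.10 (adjusted p = 0.0485) and IGF2 -0.26 ± 0.10 (0.0547), so values of nearly equal size lay on either side of the threshold. The IRS1 call is lost when changes are centred on the median gene (adjusted p = 0.121) and when the errors are added linearly (0.386). Linear addition overstates the error where the groups of libraries are separate. IGF2 is called when only genes at or above 50 mean normalised counts are tested (0.0263). IGF1R (-0.12 ± 0.07), INSR (-0.17 ± 0.15) and IRS2 (-0.33 ± 0.16) did not pass.

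**Figure D4:**
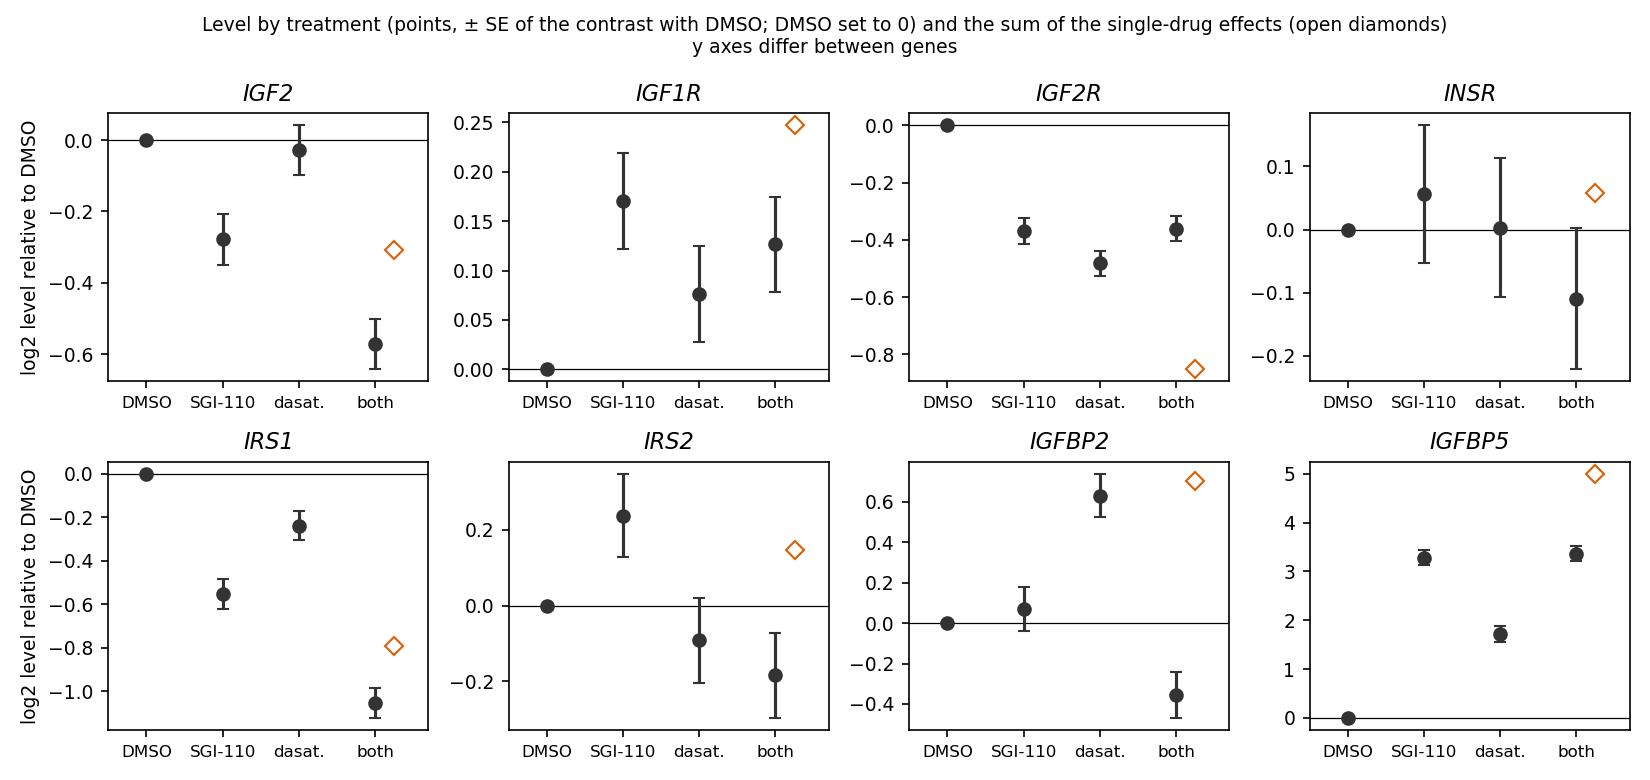
Log2 level relative to DMSO (y) by treatment (x) for the 8 members measurable in all treatments; points carry the SE of the contrast with DMSO, open diamonds are the sum of the single-drug effects, and y axes differ between genes. The combination lies below the diamond for IGFBP5 (3.37 against 5.00) and IGFBP2 (-0.35 against 0.70) and above it for IGF2R (-0.36 against -0.85).

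The combination against dasatinib, which shows SGI-110 in cells that also received dasatinib, called 4 members higher (H19, IGFBP3, IGFBP5 and IGF2R) and 3 lower (IRS1, IGFBP2 and IGF2), against 26.6% and 16.5% of all genes, computed here. For IGFBP5 the rise in that setting was 3.14-fold (1.65 ± 0.11), beside 9.71-fold without dasatinib.

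Around the members, a list of other binding proteins, the proteases that act on them and the protease inhibitors STC1 and STC2 had 8 of 12 genes higher with SGI-110 and 1 lower, beside 30.4% and 17.1% of all genes, with a median of 2.48 over the 9 measured in both groups, beside 0.04 over all genes, computed from the authors' deposited table. IGFBP4 (5.83 ± 0.45), the protease gene PAPPA, whose product cleaves IGFBP4 (3.97 ± 0.30), and the metalloprotease gene ADAM12 (2.48 ± 0.10) rose, and IGFBPL1 fell (-0.97 ± 0.07), in the authors' deposited table. With dasatinib alone 9 of these 12 had an adjusted p, and 3 rose and 2 fell, beside 17.8% and 13.2% of all genes, in the authors' deposited table. Among them PAPPA rose (2.32 ± 0.32) and ADAM12 fell (-0.79 ± 0.13), in the authors' deposited table. Dasatinib added to SGI-110 raised PAPPA (0.77 ± 0.11), HTRA1 (0.93 ± 0.15) and IGFBP6 (0.93 ± 0.18) and lowered 3 others in the authors' deposited table. Of the 12, 10 had an adjusted p there, and over all genes 14.2% were called higher and 17% lower. IGFBP6 and PAPPA thus rose further where IGFBP3 fell; the difference between them was not tested. Among other ligands, IGF1 had a mean normalised count of 4.21 and no measurable level in DMSO, and was called higher with SGI-110 (adjusted p = 7.84e-03) and with the combination (1.89e-05) in the authors' deposited table.

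The RNA-binding proteins IGF2BP1, IGF2BP2 and IGF2BP3, which bind IGF2 messenger RNA, were measurable throughout. With SGI-110, IGF2BP1 rose (0.58 ± 0.05), IGF2BP2 rose (0.15 ± 0.05) and IGF2BP3 stood at -0.005 ± 0.06 in the authors' deposited table. With the combination IGF2BP1 rose by 0.71 ± 0.04, IGF2BP3 rose by 0.15 ± 0.06 and IGF2BP2 fell (-0.16 ± 0.05) in the authors' deposited table. Dasatinib alone lowered IGF2BP2 (-0.38 ± 0.05) and raised IGF2BP1 (0.16 ± 0.05) and IGF2BP3 (0.15 ± 0.06) in the authors' deposited table.

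Other adaptors and receptor regulators rose with SGI-110 in 11 of 16 cases and fell in 1 (median 0.71), computed from the authors' deposited table, beside 30.4% and 17.1% of all genes and a median of 0.04. The combination also gave 11 higher and 1 lower (median 0.56), beside 29.8% and 17.6% of all genes and a median of 0.04, computed from the authors' deposited table. The adaptor gene SHC1, which links receptors to RAS, rose by 1.48 ± 0.05, the feedback inhibitor gene SOCS1 by 2.66 ± 0.28 and the ubiquitin ligase gene CBL by 0.79 ± 0.05 with SGI-110 in the authors' deposited table. SOCS3, a related feedback inhibitor, rose with SGI-110 (0.98 ± 0.08) and fell when dasatinib was added (-1.40 ± 0.08) in the authors' deposited table. Genes of the PI3K, AKT and mTOR branch split evenly with SGI-110, 11 of 26 higher and 11 lower with a median of -0.06, beside 30.4% and 17.1% of all genes, computed from the authors' deposited table. With the combination 9 rose and 12 fell, beside 29.8% and 17.6% of all genes, computed from the authors' deposited table. The regulatory subunit gene PIK3R3 rose with SGI-110 (1.24 ± 0.08), while the mTOR partner gene RPTOR (-1.01 ± 0.09) and the translation repressor gene EIF4EBP1 (-1.62 ± 0.15) fell, in the authors' deposited table.

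FOXO factors, which AKT holds out of the nucleus, and genes known as their targets gave 10 of 16 higher and 1 lower with SGI-110, beside 30.4% and 17.1% of all genes, and 8 higher and 6 lower with dasatinib, beside 17.8% and 13.2%, computed from the authors' deposited table. FOXO1 rose with dasatinib alone (0.96 ± 0.07) and with dasatinib added to SGI-110 (0.94 ± 0.07), and stood at -0.09 ± 0.07 with SGI-110, in the authors' deposited table. With the combination, 6 of the 16 rose and 6 fell, among them the sestrin gene SESN3, which rose (1.39 ± 0.13), and BCL6, which fell by 1.32 ± 0.10 when dasatinib was added to SGI-110, computed from the authors' deposited table. In the interaction 10 of the 16 were called below the sum of the single effects, none was called above it and 6 were not called. Over all genes 8.49% were called below and 6.09% above. The median was -0.56 over 15 genes, beside -0.02 over all 20386 measured genes, computed here. Of 10 genes listed as imprint regulators, 5 rose and 4 fell with SGI-110, beside 30.4% and 17.1% of all genes, in the authors' deposited table. DNMT3B rose (1.63 ± 0.09) and UHRF1, a partner of the maintenance methyltransferase, fell (-0.54 ± 0.06), while ZFP57 and CTCFL, the germ-line paralogue of CTCF, had no measurable level in DMSO and were called higher (adjusted p = 8.22e-12 and 3.20e-11), according to the authors' deposited table. CTCF itself fell with SGI-110 (-0.42 ± 0.07, adjusted p = 5.38e-09) and rose with dasatinib alone (0.41 ± 0.07, 1.45e-08) in the authors' deposited table.

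**Figure D5:**
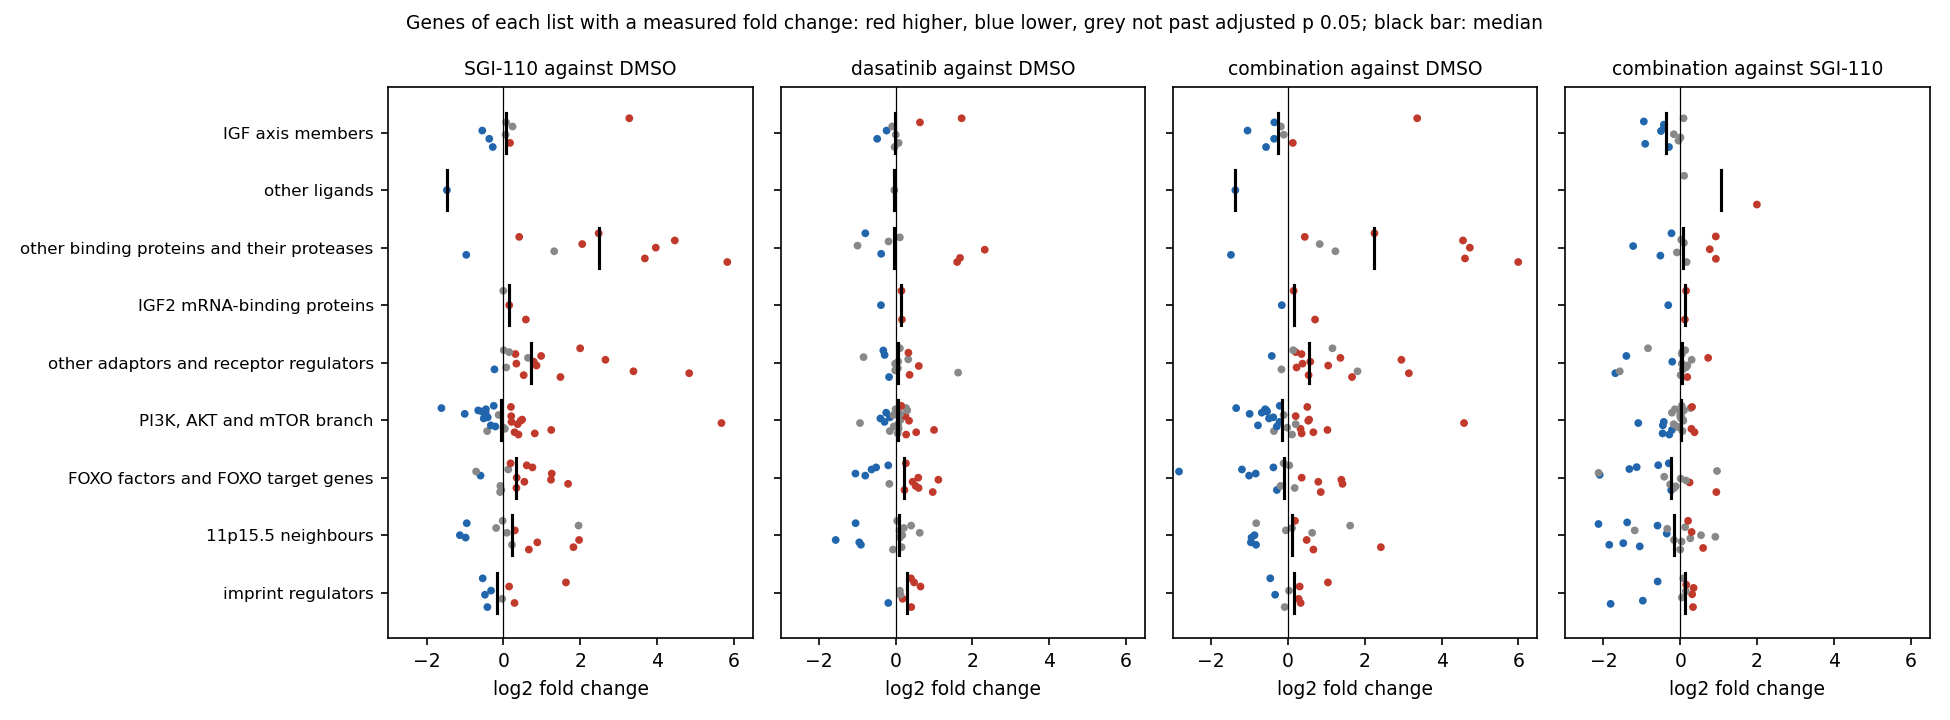
Log2 fold change (x) of every gene with a measured fold in each list (y) for the 4 deposited comparisons; red is higher, blue lower, grey not past an adjusted p of 0.05, and black bars are medians. With SGI-110 the other binding proteins and proteases have a median of 2.48, and the PI3K, AKT and mTOR branch has 11 genes called higher and 11 called lower.

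The genes whose changes were most like those of IGF2 were sought among 11522 others at or above 100 mean normalised counts, by the Euclidean distance over the 3 log2 fold changes against DMSO. The gene at rank 1 (0.04 log2) and that at rank 5 (0.06) carry clone-based names only, and NREP, ALDH5A1 and METRNL, each at 0.06, lay between them, computed from the authors' deposited table. The pattern was common, since 2793 genes lay within 0.5 log2 of IGF2. The 3 fold changes share their DMSO libraries, and no such distance can be given for H19, which has no fold against DMSO.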

How the data were processed

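Per the labels' protocols, stranded mRNA libraries were sequenced from both ends, 75 bases each. Per the submitters' processing notes, the tools were DESeq2 1.16.1, DESeq, featureCounts 1.5.1, HISAT2 2.1.0 and Trim Galore 0.4.2, with GRCh38. Settings, model formula, filters and annotation: not given in the sources used here. Deposited were 4 tables of comparisons. Per the file headers, the signal of a gene is baseMean, which DESeq2 defines as the mean count after division by size factors. The deposited lfcSE is the standard error on the log2 scale, the deposited stat is a score (the Wald statistic), and the p-value and adjusted p-value are the authors'. All samples were assigned to groups by title, but no column belongs to a sample. Depth per sample is unknown, so no counting interval is given, and the deposited standard errors set the precision.

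Log2 fold changes were recomputed here as Wald statistic times standard error (Python 3.11.15, pandas 2.3.3, numpy 2.4.6, scipy 1.17.1). The difference of the combination and SGI-110 changes from DMSO lay within 0.00152 log2 of the deposited direct comparison. The largest deposited standard error was 6.01, against 6.01 for 3 libraries per treatment and 4.25 for 6 in a fit of 24 libraries. Group variances were solved from the standard errors; 1 gene gave a negative one. Derived contrasts used a two-sided Wald p with Benjamini-Hochberg over 29639 genes. They were run on simulated data drawn with the same group standard errors, which cannot check those errors or the assumption of 1 fit. That dasatinib against DMSO belongs to the same fit is an assumption. Coordinates and exon lengths are from GENCODE v29 (GRCh38) and promoters from RefSeq (GRCh38.p14). The alternatives were another adjustment, a minimum mean count, a stricter threshold, centring, and other errors for derived contrasts.

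The members and lists were chosen with earlier results of these data known. Named genes are the 10 members, every gene of a list of up to 5, and otherwise genes from the 4 with the largest Wald statistic among those called in a comparison. IGF2-AS, TH, MRPL23-AS1, TRPM5, SLC22A18, MRPL23 and NAP1L4 were named outside that rule, after their values were seen, to describe the H19 region. MYOD1, MYOG and DES, from the marker list, are named to check the tissue. IRS4, ASCL2, INS, INSL3, RLN1 and TTR were not found under these names. The labels call the triplicates biological and name no separate cultures, so p-values measure the spread between these samples, which may be technical. Likeness to H19 was planned and could not be computed, since H19 has no fold against DMSO. The values of 1 gene of the lists are not reported here.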

Additional observations from a re-analysis of the deposited data

Results flagged for a closer look

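The effect of dasatinib differed between cells with and without SGI-110 for 4 members, by the test of the difference itself (two-sided Wald, Benjamini-Hochberg over all genes, computed here). The interaction was -1.63 log2 for IGFBP5, -1.06 for IGFBP2, 0.49 for IGF2R and -0.26 for IRS1. The IRS1 call (adjusted p = 0.0485) is lost when centred on the median gene (0.121) and at a threshold of 0.01. It is also lost with errors added linearly (0.386), which overstates the error of separate groups. IGFBP2 is the member whose response to dasatinib changed sign, from 0.63 alone to -0.42 on top of SGI-110, both past the threshold in the authors' deposited table. H19 and IGFBP3 could not be tested, since DMSO and dasatinib held no measurable level of either.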

How the results depend on the processing

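The counts of members called in each comparison stayed within 1.5 times under every alternative run: adjustment over every gene, a mean normalised count of at least 50, an adjusted p under 0.01, centring on the median gene, and, for derived contrasts, other standard errors. Over single members, 221 of 232 values kept their direction and their side of the threshold, 3 passed newly, 6 no longer passed and 2 changed sign. Those 2 were small changes that were not called: INSR with dasatinib at -0.0506 and IGF2R for the combination against SGI-110 at -0.0095, both when centred. The median gene used for centring moved by -0.06 to 0.05 log2. IGF1R with the combination (adjusted p = 0.0215), IGF2R for the combination against dasatinib (0.0168) and the IRS1 interaction (0.0485) are lost at a threshold of 0.01. No paired analysis was possible because the tables hold no value per library, and for the same reason no replicate could be left out. The promoter window of 250 bases gave the H19 window 4 CpG sites and that of IGFBP5 8, and it held no E-box for INSR. Depth per library is unknown, and H19 and IGFBP3 lie at the limit of measurement in 2 of 4 treatments.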
